A study of Homo sapiens with 4 samples.

Results

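The 53 interferon-stimulated and nucleic acid sensor genes described here were taken from a fixed list of symbols and looked up in the deposited table of 60725 genes by their Ensembl identifiers. They hold sensors of foreign RNA and DNA, the transcription factors that answer them, and the antiviral effector genes that these factors switch on. Of the 53 genes, 47 had at least 10 counts in at least 2 libraries and were tested, along with 15356 genes in all. RNA-seq was carried out on RPE1 SunTag cells, a telomerase-immortalized human line from the retinal pigment epithelium (hTERT-RPE1) that carries the SunTag protein-labelling system. The control group (control replicates 1 and 2) received Silencer Select Negative Control No. 2 siRNA, and the TOP2B knockdown group (TOP2B knockdown replicates 1 and 2) received the Dharmacon ON-TARGETplus SMARTpool against TOP2B, which encodes the type II topoisomerase TOP2B. Both groups were transfected with 10 nM siRNA in Lipofectamine RNAiMAX, transfected again after 48 h and harvested 72 h later. The labels name no interferon, virus or other stimulus for either group. The control siRNA and the TOP2B pool differ in sequence and in supplier, so an effect of the siRNAs themselves and an effect of losing TOP2B cannot be told apart.

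Cells recognise viral or misplaced nucleic acids with cytosolic helicases such as RIGI and IFIH1, with endosomal Toll-like receptors and with the DNA sensor CGAS, which signals through STING1. These sensors lead to the secretion of type I and III interferons, which act on neighbouring cells through a factor complex that contains STAT2 and IRF9. That complex binds a short promoter element, the interferon-stimulated response element (ISRE), in genes whose products destroy viral RNA, block translation or hinder virus entry. Many cell lines transcribe part of this set at a low level without any stimulus.

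The knockdown target itself had 154.9 and 143.5 CPM (each gene's share of the library's counts, scaled by the TMM method) in the control libraries and 15.3 and 13.3 CPM in the knockdown libraries, which is 9.58% of the control mean. Library totals ranged from 20310259 to 23887013 counts. At this depth 3 counts correspond to between 0.125 and 0.149 CPM. The log2 fold changes of all 15356 tested genes centred on a median of -0.0029, with their 5th and 95th percentiles at -0.68 and 0.80. The replicates are independent biological replicates according to the study's methods. Among markers of the retinal pigment epithelium, MITF and OTX2 (11.2 to 13.4 CPM) were present, while RPE65 and TYR had 0 counts in each library and RLBP1 at most 1. All 4 tested genes of the 9 on this marker list lay above both controls in both knockdown libraries, as did 27.7% of all tested genes. None was called (MITF 38.5 and 38.2 against 42.6 and 44.8 CPM), and BEST1 and PMEL had low means of 0.76 and 0.94 CPM. The keratin genes KRT8 and KRT18 lay below both controls, as did 26.6% of all tested genes. Neither was called (log2 fold changes of -0.35 and -0.39). The part of these marker genes in the results of the members was not tested. Among the 6 leukocyte markers, CD3E and MS4A1 had 0 counts, PTPRC, CD14 and LYZ had at most 9 counts in a library, and CSF1R had 51 to 70 counts, with summed levels of 2.67 and 3.597 CPM in the control and 3.44 and 3.22 CPM in the knockdown libraries.

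Most members did not pass the test for a change after TOP2B knockdown, and those that passed went in both directions. By the quasi-likelihood test of edgeR across all genes, 5 of the 47 members (10.6%) were lower, namely IFIT1, IFI6, IFIT2, IFIH1 and IFITM3, where 4.18% of all tested genes were lower. The 2 members that were higher (4.26%) were HERC5 and IFI44L, where 6.66% of all tested genes were higher. The remaining 40 members did not pass the threshold of an adjusted p of 0.05. A negative log2 fold change was found for 30 of the 47 members (63.8%), against 50.2% of all genes, and the median log2 fold change of the members was -0.17. Leaving out 1 library gave 2 to 7 lower members (2 when TOP2B knockdown replicate 1 was omitted, 3 when control replicate 2 was) and a median between -0.2563 and -0.0901. Both knockdown libraries lay below both control libraries for 23 members (48.9%), against a background of 26.6%, and above both for 13 members (27.7%), which is the same as the background of 27.7%. Before adjustment, 15 members (31.9%) were lower at p below 0.05, against 11.8% of all genes, and 6 (12.8%) were higher, against 14.5% of all genes. The summed level of the 53 genes was 2138 and 2187 CPM in the control libraries and 1929 and 2051 CPM in the knockdown libraries. Both knockdown sums lay below both control sums, as did 26.6% of all tested genes taken singly. The sums weigh the most abundant genes most, and their difference was not tested.

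**Figure D1:**
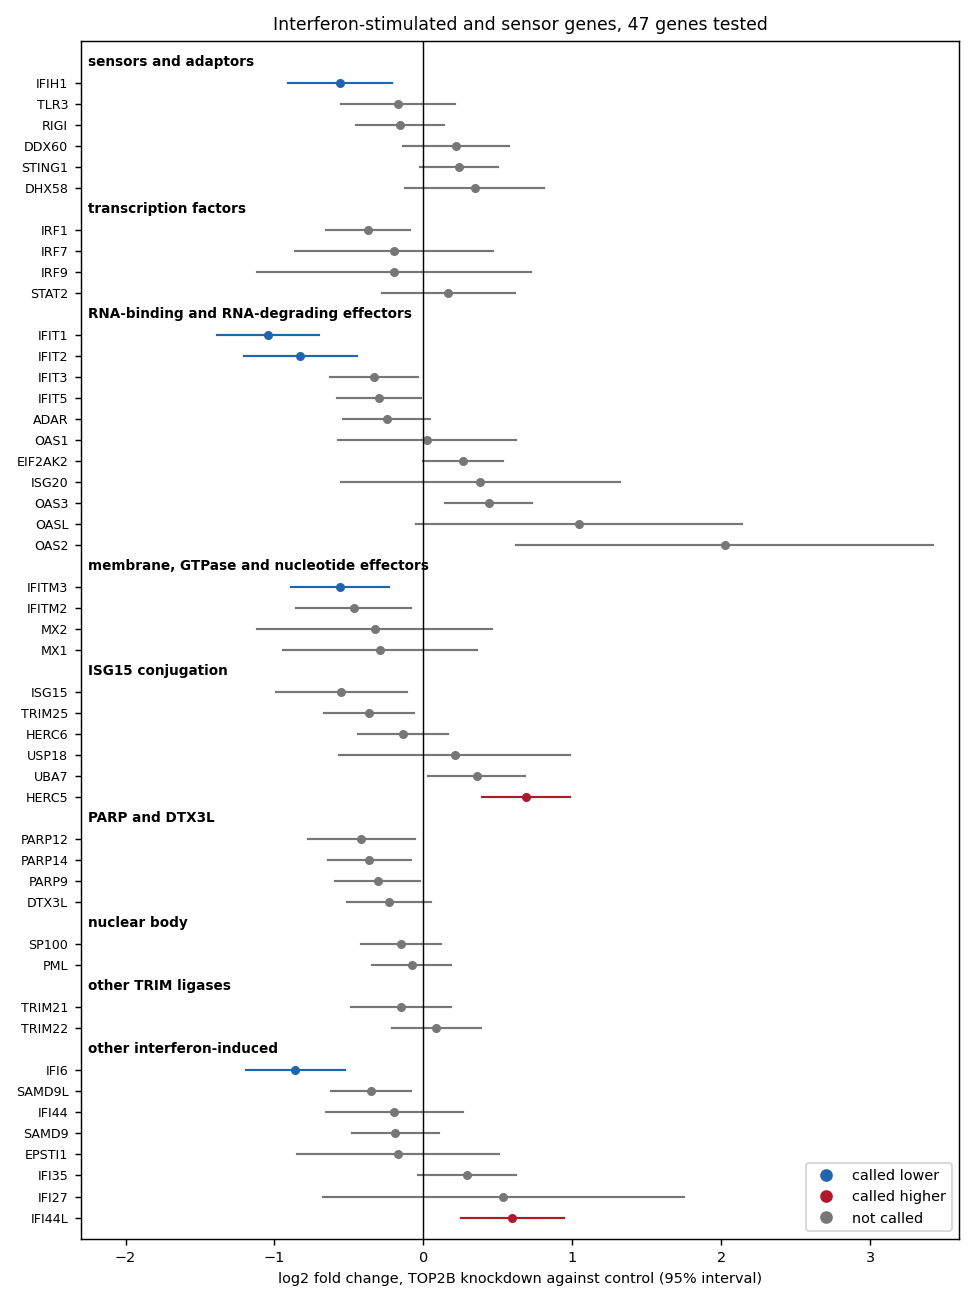
Log2 fold change (x axis, TOP2B knockdown against control, with its 95% interval) of the 47 tested members, grouped by role. The 5 genes called lower range from -1.04 (IFIT1) to -0.56 (IFIH1 and IFITM3), and the 2 called higher are at 0.60 (IFI44L) and 0.69 (HERC5).

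**Figure D2:**
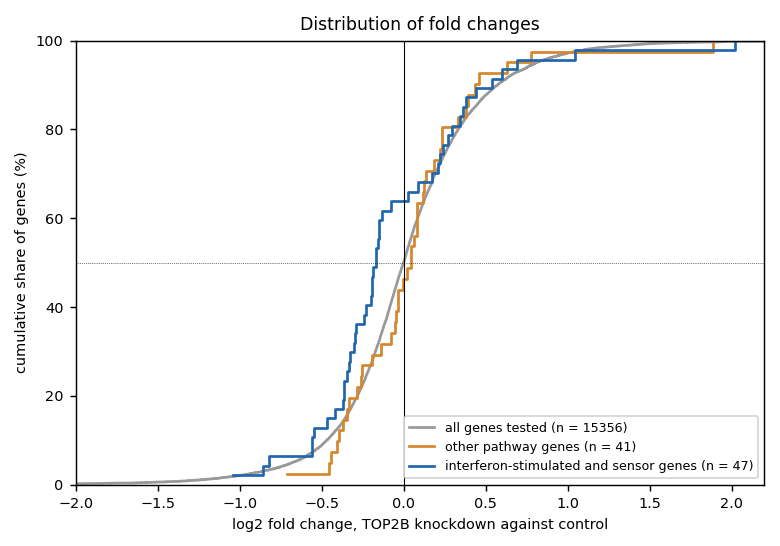
Cumulative share of genes (y axis, %) against the log2 fold change (x axis) for the 47 tested members, the 41 tested genes of the other pathway list and all 15356 genes tested. The curve of the members runs above that of all genes just below 0, where 63.8% of the members and 50.2% of all genes have been counted, and it runs close to that curve on the positive side.

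The list was written from function and not from sequence. Because interferon acts on such genes through the ISRE, a high ISRE share goes with the choice of members and is no independent feature. For 40 of the 53 genes the RefSeq table (GRCh38.p14) held a window of 250 bases before to 50 after the start site. The ISRE core, searched on both strands as GAAANNGAAA (TTTCNNTTTC on the other strand), occurred in the window of 27 of these 40 genes (67.5%), against 3.57% of all 35116 windows and 4.38% of the 27305 symbols with a window. The core of the gamma-activated site, TTCNNNGAA, reads the same on both strands and does not share its spacing with the ISRE core. It occurred in 12 of the 40 (30.0%), against 7.66% of all windows and 9.38% of the symbols with a window. The sequences below show the 170 bases before the start site for the 6 called members that have a window, written 5′ to 3′ along the gene's strand, with each ISRE core in capitals, because the same element stands before genes that fell and before genes that rose.

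IFIT1, chr10:89392453-89392622, plus strand: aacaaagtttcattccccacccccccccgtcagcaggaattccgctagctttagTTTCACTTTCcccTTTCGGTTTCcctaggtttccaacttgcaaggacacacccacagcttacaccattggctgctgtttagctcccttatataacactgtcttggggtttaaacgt
IFI6, chr1:27672193-27672362, minus strand: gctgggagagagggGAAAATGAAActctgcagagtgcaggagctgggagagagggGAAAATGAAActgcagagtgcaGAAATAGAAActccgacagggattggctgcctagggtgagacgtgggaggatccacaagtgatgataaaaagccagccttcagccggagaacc
IFIH1, chr2:162318685-162318854, minus strand: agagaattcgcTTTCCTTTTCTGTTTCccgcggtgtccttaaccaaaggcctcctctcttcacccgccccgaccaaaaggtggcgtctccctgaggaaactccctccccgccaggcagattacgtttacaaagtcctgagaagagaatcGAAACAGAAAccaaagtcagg
IFITM3, chr11:320861-321030, minus strand: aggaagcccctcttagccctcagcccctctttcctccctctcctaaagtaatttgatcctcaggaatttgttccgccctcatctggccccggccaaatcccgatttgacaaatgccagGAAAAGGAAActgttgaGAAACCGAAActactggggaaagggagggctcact
HERC5, chr4:88456949-88457118, plus strand: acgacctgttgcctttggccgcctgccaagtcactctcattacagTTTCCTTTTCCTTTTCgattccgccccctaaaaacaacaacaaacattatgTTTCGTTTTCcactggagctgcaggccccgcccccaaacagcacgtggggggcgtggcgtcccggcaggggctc
IFI44L, chr1:78620278-78620447, plus strand: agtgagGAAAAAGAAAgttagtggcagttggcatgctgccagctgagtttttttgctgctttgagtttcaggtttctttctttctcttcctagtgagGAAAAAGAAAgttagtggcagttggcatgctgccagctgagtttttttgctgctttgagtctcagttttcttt

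All 6 windows held at least 2 ISRE cores, and the first 4 belong to genes that fell while the last pair belongs to genes that rose. Uncalled members also held at least 2 cores, among them IFIT3, IFIT5, DDX60, OAS3, ISG15 and TRIM21, while others such as TLR3 and PARP9 held 1. In IFIT1 both cores lie on the opposite strand, with first bases 116 and 103 bases before the start (positions -116 and -103). In HERC5 the cores lie on the opposite strand as well, at -125, -119 and -74, the first 2 overlapping each other. IFI6 has forward cores at -156, -115 and -93, and IFI44L has 2 identical forward cores at -164 and -73. In IFIH1 an overlapping pair on the opposite strand at -159 and -153 is followed by a forward core at -21, and IFITM3 has forward cores at -52 and -35. Over all tested members, the 24 with an ISRE core had a median log2 fold change of -0.21 and included 4 of the lower and both of the higher genes. The 11 with a window but no ISRE core had a median of -0.16 and held no called gene. The 12 without a window, IFIT2 among them, had a median of 0.15 and held 1 lower gene. Of all tested genes, 10.8% were called in either direction. With so few members in each group, these counts of calls are not compared, and the differences between the groups were not tested. These letters are a match in a window, and binding to them was not analysed here.

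**Figure D3:**
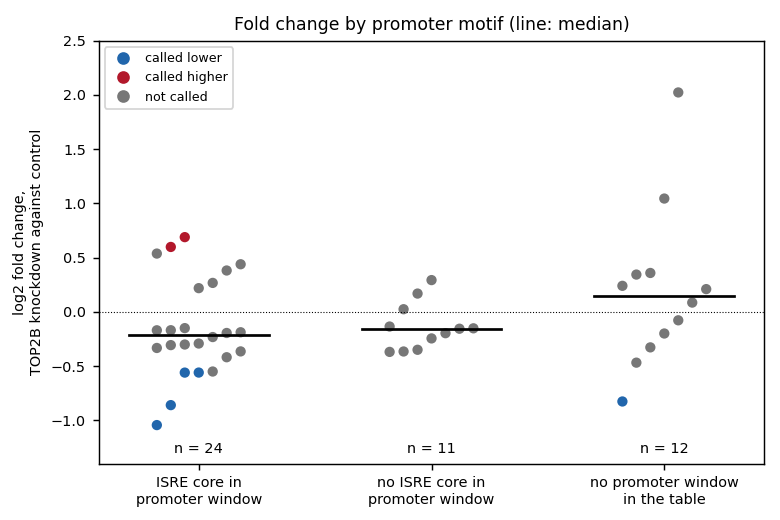
Log2 fold change (y axis) of the 47 tested members, each point being 1 gene, split by whether the RefSeq promoter window holds the ISRE core; lines mark medians. The medians are -0.21 with the core (n = 24), -0.16 without it (n = 11) and 0.15 where the table has no window (n = 12), and called genes of both directions sit in the first column.

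Among the sensors and adaptors, 6 of 7 genes were tested and IFIH1 was the only member called, while the other 5 split between both directions. IFIH1 (ENSG00000115267, chromosome 2 from 162267074 to 162318684, minus strand) encodes MDA5, a helicase that detects long double-stranded RNA. It had 12.5 and 13.9 CPM in the control libraries and 9.01 and 8.88 CPM in the knockdown libraries, so both knockdown values lay below both controls. Its log2 fold change was -0.56 (SE 0.156, adjusted p = 0.048), and without 1 of the 4 libraries the adjusted p ranged from 0.0516 to 0.221, so the call needed all 4. RIGI, the helicase that recognises short RNAs with triphosphate ends, had 22.05 and 21.89 CPM in control and 18.9 and 20.6 CPM in knockdown cells. Its log2 fold change of -0.16 (95% interval -0.45 to 0.14, adjusted p = 0.503) did not pass, and 43.2% of its exon bases overlap another annotated gene. STING1, the adaptor of the DNA sensing branch and the most abundant gene of the group per length (12.3 CPM per kb of exon in control cells), had 61.7 and 56.5 CPM in control and 70.6 and 69.0 CPM in knockdown cells. Its log2 fold change of 0.24 (95% interval -0.02 to 0.50, adjusted p = 0.228) did not pass either, although the groups did not overlap. CGAS, the DNA sensor that makes the STING1 ligand, had 2 and 1 counts in control and 2 and 0 counts in knockdown libraries, at or under the floor of 3 counts, so the line had next to no CGAS transcript in either group at this depth.

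None of the 4 transcription factors was called. STAT2, a subunit of the interferon-responsive complex, varied widely between control replicates, with 199.6 and 124.1 CPM in control and 195.2 and 168.6 CPM in knockdown libraries. These groups overlapped, and its log2 fold change was 0.17 (SE 0.200, adjusted p = 0.645), which turned to -0.13 without control replicate 2. IRF1, a factor that binds ISRE-like elements by itself, had 43.0 and 41.3 CPM in control and 30.3 and 35.0 CPM in knockdown libraries. Both knockdown values lay below both controls, with a log2 fold change of -0.37 (95% interval -0.65 to -0.09, adjusted p = 0.0939). Other genes, the antisense IRF1-AS1 among them, overlap 22.9% of the IRF1 exon bases, all from the opposite strand, which matters only if reads were counted without regard to strand. The column headers read stranded and paired-end, although the protocol gives single-end reads, so this was not settled.

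The RNA-binding and RNA-degrading effectors held the largest fall and, among genes at very low counts, the largest rise. IFIT1 (ENSG00000185745, chromosome 10 from 89392546 to 89406487, plus strand), whose product binds viral RNA that lacks a host-type cap, had 18.9 and 17.9 CPM in the control libraries and 9.58 and 8.28 CPM in the knockdown libraries. From 18.4 ± 0.69 to 8.93 ± 0.92 CPM (SD, n = 2), 48.5% of the control level remained. Its log2 fold change was -1.04 (SE 0.154, adjusted p = 0.00321), and it was called without each of the 4 libraries in turn. IFIT2 (ENSG00000119922, chromosome 10 from 89283694 to 89309271, plus strand), a partner of IFIT1 in the same RNA-binding family, had 16.7 and 15.8 CPM in control and 7.97 and 10.4 CPM in knockdown libraries. No overlap was seen between the groups, and the log2 fold change was -0.83 (SE 0.170, adjusted p = 0.0143). Without TOP2B knockdown replicate 1 the adjusted p of IFIT2 was 0.0639.

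The members of this group with the most counts had smaller fold changes. ADAR, which edits adenosine to inosine in double-stranded RNA, had the most counts of all members, with 354.2 and 370.5 CPM in control and 306.5 and 305.1 CPM in knockdown libraries, a log2 fold change of -0.24 (95% interval -0.54 to 0.05, adjusted p = 0.270). EIF2AK2, the kinase PKR that stops translation on sensing double-stranded RNA, had 123.8 and 131.6 CPM in control and 150.8 and 156.5 CPM in knockdown libraries, a log2 fold change of 0.27 (adjusted p = 0.189). The knockdown libraries thus lay wholly below the controls for ADAR and wholly above them for EIF2AK2, and neither gene passed the test.

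**Figure D4:**
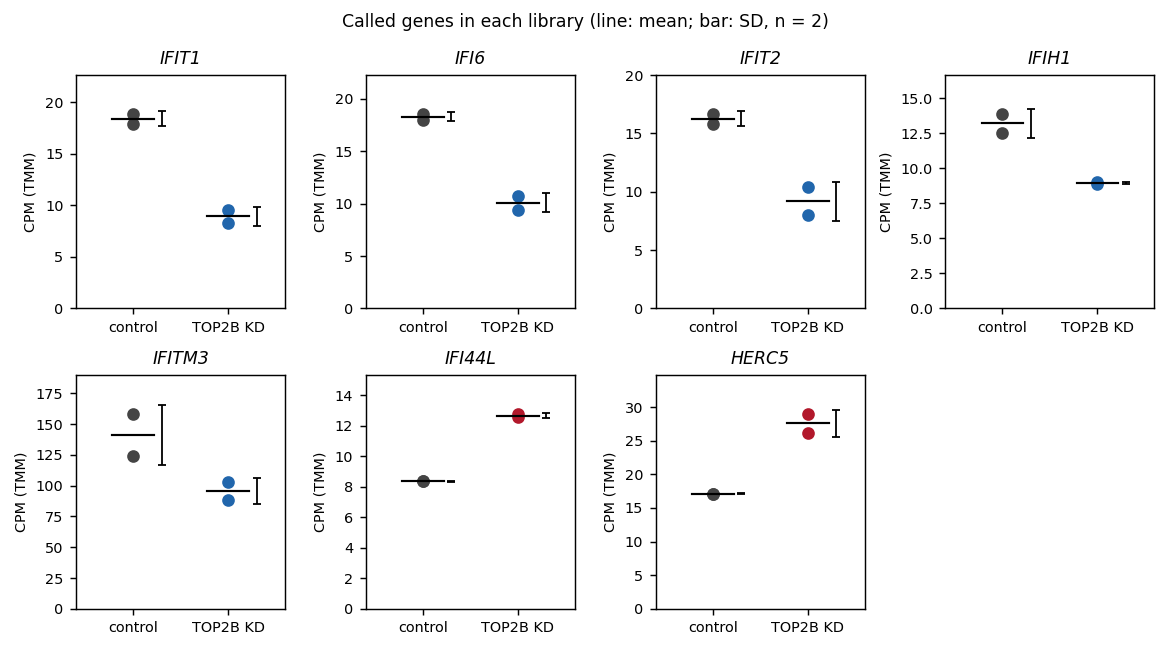
CPM (y axis, TMM-scaled, starting at 0) of the 7 called members in each library; points are libraries, horizontal lines group means and bars the SD (n = 2). IFIT1 goes from 18.9 and 17.9 to 9.58 and 8.28 CPM and HERC5 from 17.1 and 17.2 to 26.2 and 29.0 CPM. The panels were chosen by the test on these same libraries, so the lack of overlap in each of them goes with that choice.

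Only 4 of the 8 membrane, GTPase and nucleotide effectors were expressed well enough to be tested, and all 4 had a negative log2 fold change, from -0.56 to -0.29. For MX2 the groups overlapped (1.503 and 1.667 against 0.896 and 1.64 CPM) and the value ranged from -0.83 to 0.05 when 1 library was left out. IFITM3 (ENSG00000142089, chromosome 11 from 319676 to 329475, minus strand), a membrane protein that keeps viruses from fusing with endosomes, was the most abundant member per length (49.7 CPM per kb in control and 33.7 in knockdown cells). It had 124.0 and 158.4 CPM in control and 88.5 and 103.1 CPM in knockdown libraries, which did not overlap. The log2 fold change was -0.56 (SE 0.149, adjusted p = 0.0405), and it was called in 2 of the 4 fits that leave out 1 library, and its adjusted p rose to 0.289 when control replicate 2 was omitted and to 0.199 when TOP2B knockdown replicate 1 was omitted. Its paralog IFITM2, the second most abundant per length, had 50.9 and 65.6 CPM in control and 35.7 and 48.5 CPM in knockdown libraries. IFITM2 thus lay lower in both knockdown libraries, with a log2 fold change of -0.47 (95% interval -0.85 to -0.08, adjusted p = 0.116). The 2 genes are similar in sequence, so reads may be split between them, and their individual values are uncertain to that extent. The third paralog, IFITM1, had 4 and 1 counts in control and 3 and 1 counts in knockdown libraries. BST2, which tethers budding viruses to the cell, had at most 3 counts in any library. RSAD2 (viperin) and CMPK2, which act on nucleotides used by viral polymerases, had 0 counts in all 4 libraries, which allows a level of up to 0.149 CPM in the shallowest library.

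The ISG15 conjugation genes split evenly, with 3 of 6 negative and 3 positive. HERC5 (ENSG00000138646, chromosome 4 from 88457119 to 88506163, plus strand) is the ligase that attaches the ubiquitin-like protein ISG15 to newly made proteins, and it was the called member that rose most. It had 17.1 and 17.2 CPM in the control libraries and 26.2 and 29.0 CPM in the knockdown libraries, well apart from each other. The log2 fold change was 0.69 (SE 0.132, adjusted p = 0.0107), and it was called without each of the 4 libraries. UBA7, the enzyme that activates ISG15, had 26.1 and 20.5 CPM in control and 28.9 and 30.9 CPM in knockdown libraries, with a log2 fold change of 0.36 (adjusted p = 0.150). TRIM25, a ubiquitin and ISG15 ligase that also acts on RIGI, had 121.8 and 144.5 CPM in control and 96.7 and 110.0 CPM in knockdown libraries, with a log2 fold change of -0.37 (adjusted p = 0.116). UBA7 and HERC5 thus had positive values and TRIM25 and ISG15 negative values, and HERC5 alone passed.

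The 4 PARP and DTX3L genes encode ADP-ribosyltransferases and the ubiquitin ligase DTX3L, which works with PARP9. None was called, and all 4 had both knockdown libraries below both controls, as had 26.6% of all tested genes. Their median log2 fold change was -0.34. PARP14 had 87.4 and 76.9 CPM in control and 67.0 and 60.6 CPM in knockdown libraries, a log2 fold change of -0.36 (95% interval -0.64 to -0.09, adjusted p = 0.0941). DTX3L had 68.1 and 77.9 CPM in control and 58.6 and 65.7 CPM in knockdown libraries, a log2 fold change of -0.23 (adjusted p = 0.281). The range of the 4 was narrow, from -0.42 to -0.23.

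The nuclear body genes SP100 and PML, whose products form the PML bodies, were both expressed and had intervals that include 0. SP100 had 120.9 and 125.2 CPM in control and 105.5 and 116.1 CPM in knockdown libraries (log2 fold change -0.15, 95% interval -0.42 to 0.12), and PML had 73.9 and 77.5 CPM in control and 68.0 and 75.4 CPM in knockdown libraries (log2 fold change -0.08, 95% interval -0.34 to 0.19). TRIM22, an interferon-induced ligase with antiviral activity, had 180.1 and 181.8 CPM in control and 174.9 and 209.2 CPM in knockdown libraries, and TRIM21, the cytosolic antibody receptor, had 28.5 and 37.3 CPM in control and 28.5 and 30.7 CPM in knockdown libraries. For both TRIM genes the groups overlapped, and their signs (0.09 for TRIM22 and -0.15 for TRIM21 on the log2 scale) changed when 1 library was left out.

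Of the 9 other interferon-induced genes, 8 were tested, and they held 1 fall and 1 rise. IFI6 (ENSG00000126709, chromosome 1 from 27666064 to 27672212, minus strand), a small membrane protein that restricts flaviviruses, had 18.6 and 18.0 CPM in control and 10.7 and 9.42 CPM in knockdown libraries. The groups lay far apart relative to their spread, with 55.1% of the control level left. Its log2 fold change was -0.86 (SE 0.150, adjusted p = 0.00691), it was called without each of the 4 libraries in turn, and 23.1% of its exon bases overlap other annotated genes. IFI44L (ENSG00000137959, chromosome 1 from 78619902 to 78646145, plus strand), a widely used marker of interferon responses, had 8.35 and 8.38 CPM in control and 12.8 and 12.6 CPM in knockdown libraries. Replicates were very close in both groups, and the log2 fold change was 0.60 (SE 0.154, adjusted p = 0.0352). Without 1 library the log2 fold change stayed between 0.59 and 0.60 while the adjusted p ranged from 0.0936 to 0.117. SAMD9L, an inhibitor of translation in infected cells, had 39.7 and 38.0 CPM in control and 29.5 and 31.4 CPM in knockdown libraries (log2 fold change -0.35, adjusted p = 0.0952). Its neighbour SAMD9 had 24.2 and 22.5 CPM in control and 19.7 and 21.2 CPM in knockdown libraries (log2 fold change -0.19, adjusted p = 0.410). XAF1 had 0 counts in all 4 libraries.

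Several members lie side by side in the genome, some of them copies of each other by duplication, and 23 of the 53 fall into 9 clusters in which neighbours are at most 200000 bases apart. The IFIT cluster on chromosome 10 had negative values throughout. IFIT2, IFIT3, IFIT1 and IFIT5 had log2 fold changes of -0.83, -0.33, -1.04 and -0.30, of which the values of IFIT2 and IFIT1 passed the test. IFIT3 had 52.4 and 55.9 CPM in control and 38.7 and 47.2 CPM in knockdown libraries. IFIT5 had 32.0 and 34.2 CPM in control and 25.5 and 28.2 CPM in knockdown libraries. Both knockdown libraries were thus below both controls for all 4 IFIT genes, as for 26.6% of all tested genes. The ratio of IFIT1 to IFIT5 counts went from 0.591 and 0.525 in control to 0.376 and 0.293 in knockdown libraries, so IFIT1 was lower relative to its neighbour in both knockdown libraries. The OAS cluster on chromosome 12, whose enzymes make the short oligoadenylates that activate RNase L, had values of 0.02 for OAS1 (95% interval -0.57 to 0.62, overlapping groups, and down to -0.21 when 1 library was left out), and positive values for OAS3 (0.44, 95% interval 0.15 to 0.73, adjusted p = 0.0597) and OAS2 (2.02, adjusted p = 0.069), and none was called. Per length OAS3 was the most abundant of them, at 3.20 CPM per kb in control cells against 0.203 for OAS1 and 0.0173 for OAS2. OAS3 had 52.6 and 63.0 CPM in control and 75.0 and 81.6 CPM in knockdown libraries, while OAS2 had 3 and 6 counts in control and 10 and 23 counts in knockdown libraries.

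In 2 clusters the called gene rose while its neighbour did not. HERC6, 14022 bases from HERC5, had 23.97 and 24.39 CPM in control and 20.3 and 23.7 CPM in knockdown libraries (log2 fold change -0.14). The ratio of HERC5 to HERC6 counts was 0.713 and 0.703 in control and 1.29 and 1.22 in knockdown libraries, and per length HERC5 was below HERC6 in control cells (3.59 against 4.18 CPM per kb) and above it in knockdown cells (5.79 against 3.81 CPM per kb). IFI44, 3651 bases from IFI44L, had 5.93 and 4.87 CPM in control and 4.39 and 5.06 CPM in knockdown libraries (log2 fold change -0.19), and the ratio of IFI44L to IFI44 counts went from 1.41 and 1.72 to 2.91 and 2.48. These ratios are taken within a library and are therefore free of the scaling between libraries. HERC5, IFI44L and IFIT1 were called on these same counts, so such shifts go with that choice. From control to knockdown libraries, the ratio of IFIT2 (also called) to IFIT3 went from 0.319 and 0.283 to 0.2058 and 0.2195. PARP9 to DTX3L moved little (0.485 and 0.461 against 0.449 and 0.448), and IFITM3 to IFITM2 overlapped (2.44 and 2.42 against 2.48 and 2.13). OAS3 to OAS1 went from 24.2 and 20.2 to 27.4 and 31.1, and SAMD9L to SAMD9 from 1.64 and 1.69 to 1.498 and 1.481. The differences between neighbours were not tested.

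**Figure D5:**
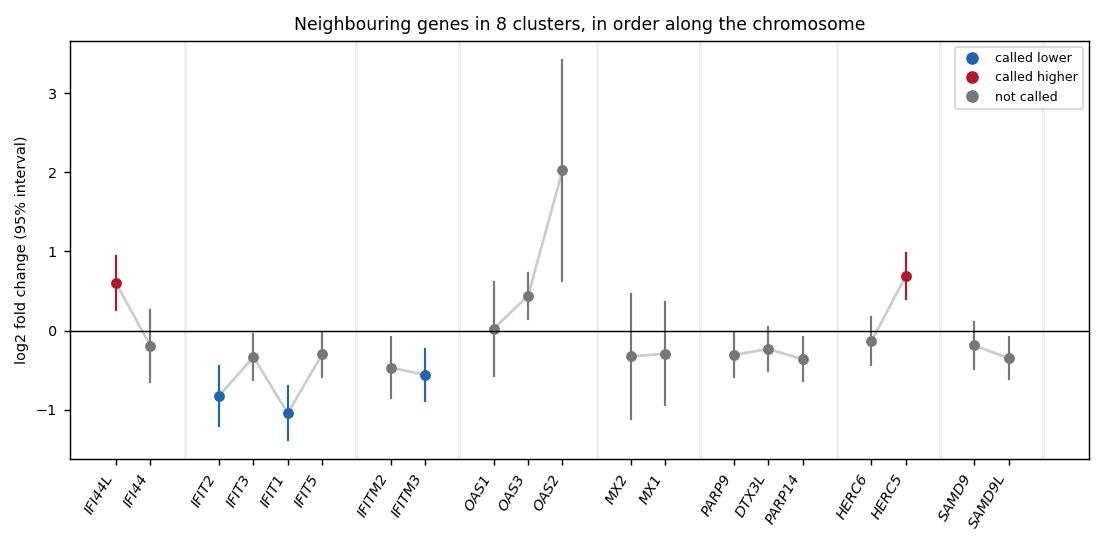
Log2 fold change with its 95% interval (y axis) of the 20 tested members in the 8 clusters that hold tested genes, in order along each chromosome (x axis); grey lines join neighbours. The IFIT genes lie between -1.04 and -0.30, the OAS genes between 0.02 and 2.02, and HERC5 (0.69) and IFI44L (0.60) stand above their neighbours HERC6 (-0.14) and IFI44 (-0.19).

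The rest of the pathway was read from a list of 59 further genes (ligands, receptors, kinases, adaptors, inhibitors, nucleases and other interferon-induced genes). Of these, 41 were tested, with a median log2 fold change of 0.04. Among the 41, 1 was lower (2.44%, against 4.18% of all tested genes) and 3 were higher (7.32%, against 6.66%). Of the ligands, IFNA2, IFNB1, IFNK, IFNG, IFNL1, IFNL2 and IFNL3 had 0 counts in each library and IFNA1 had 10 and 7 counts in control and 4 and 4 in knockdown libraries, too few to be tested. MIR31HG overlaps 63.4% of the IFNA1 exon bases from the opposite strand. If reads were counted without regard to strand, some of these counts may belong to MIR31HG. IFNE, an epithelial interferon, was the only ligand that could be tested, with 5.09 and 4.39 CPM in control and 5.61 and 4.17 CPM in knockdown libraries (log2 fold change 0.05, 95% interval -0.45 to 0.54). Apart from IFNE, the 8 other ligand genes looked up were thus at 10 counts or fewer in each library. The receptor chain IFNLR1, which binds type III interferons, rose from 1.71 and 1.14 CPM to 5.95 and 4.66 CPM (41 and 26 against 126 and 94 counts), a log2 fold change of 1.89 (SE 0.274, adjusted p = 0.00302).

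RNASEH2A and RNASEH2C, subunits of the nuclease that removes ribonucleotides from DNA, rose by log2 fold changes of 0.63 (adjusted p = 0.0126) and 0.77 (adjusted p = 0.0055). RNASEH2A had 32.3 and 37.4 CPM in control and 52.7 and 55.3 CPM in knockdown libraries, and RNASEH2C had 22.1 and 25.5 CPM in control and 40.2 and 41.3 CPM in knockdown libraries. Other annotated genes overlap 53.3% of the exon bases of RNASEH2A, on the same strand, and 28.9% of those of RNASEH2C, on the opposite strand. The only lower gene of the list was GBP3, a guanylate-binding GTPase, with 74.4 and 84.6 CPM in control and 44.5 and 52.6 CPM in knockdown libraries (log2 fold change -0.71, SE 0.133, adjusted p = 0.00955). It belongs to the 16 interferon-induced genes outside the members, of which 11 were tested. Of the 11, 7 had a negative log2 fold change, against 50.2% of all tested genes, and the median was -0.25.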

How the data were processed

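RNA-seq libraries of 2 control and 2 TOP2B knockdown samples were compared. Per the labels and the study's methods, the authors checked the reads with FastQC 0.11.6, aligned single-end 65-bp reads to GRCh38 with STAR 2.5.4a and took counts per gene during mapping. The deposited values are raw counts per gene, without normalization. Each library column occurs again in the table with the same header and the same numbers, and these 4 repeats were not used. The column headers read stranded and paired-end, which conflicts with the single-end protocol, so exon overlaps on either strand are given and reads from overlapping genes may be shared.

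All genes that reached 10 counts in 2 or more libraries were fitted together with edgeR 4.0.16 (glmQLFit and glmQLFTest, TMM, condition as the only term) in R 4.3.3. Adjusted p-values are Benjamini-Hochberg values over all 15356 genes tested, and calls were made below 0.05. CPM values were scaled by TMM. A prior count of 2 was used only for the log2 CPM values behind the correlation between libraries of the same replicate number. The log2 fold changes are those of the fit and did not use it. Standard errors were derived from the fold change and the F value, and intervals are at 95%. The floor was set at 3 counts. Floor and intervals say nothing about error beyond these 4 libraries. Levels per kb used the exon length of GENCODE v44 (GRCh38), which also gave positions, symbols and exon overlap. Promoter windows came from RefSeq (GRCh38.p14).

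The members and lists were chosen with earlier results of these data known. Genes were named by a rule: each called member, the 2 tested members with the highest mean CPM per role, the 5 largest changes at a mean of at least 1 CPM, members below the count minimum, called pathway genes and interferon ligands. Cluster neighbours, ISG15 and USP18 were named in addition, after their values were seen. The Wald test of DESeq2 1.42.0, other scalings and filters, a replicate block and fits without each library were alternatives. The fits were tested on simulated data.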

Additional observations from a re-analysis of the deposited data

How the results depend on the processing

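The direction of the members' median and the calls of IFIT1, IFI6 and HERC5 were kept under each alternative run. The size factors of DESeq2 in edgeR and library size alone gave 5 lower and 2 higher members, as reported, and 30 negative values each. Without a filter on low counts 4 members were higher (OAS2 and OAS3 in addition) and 7 lower (IFITM2 and ISG15 in addition), with a mean of at least 100 counts 3 were lower (IFITM3 and IFIH1 at adjusted p = 0.0509 and 0.0523), and the Wald test of DESeq2 called 1 higher. By that test IFIH1 had an adjusted p of 0.081 and IFI44L one of 0.0779. Leaving out 1 library gave 2 to 7 lower members (2 without TOP2B knockdown replicate 1, 3 without control replicate 2), 1 to 3 higher members (1 when control replicate 1 or TOP2B knockdown replicate 2 was left out) and a median from -0.2563 (without TOP2B knockdown replicate 2) to -0.0901 (without TOP2B knockdown replicate 1). These fits assume that the lone library varies like the other group. STAT2 ranged from -0.134 (without control replicate 2) to 0.552, TRIM21 from -0.331 to 0.0557 (without control replicate 2) and TRIM22 from -0.0642 (without TOP2B knockdown replicate 2) to 0.214. The cause of these shifts was not tested beyond the smaller number of libraries.

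With the replicate number as a replicate block, 18 members were lower and 8 higher, and 22 genes of the pathway list were called, while 21.8% of all genes were lower and 22.4% higher in that fit. Libraries with the same number deviated together (correlation 0.479), but the labels do not say that the numbers mark a shared batch, and there are only 2 pairs. Depth limits the low members, where 10 counts correspond to less than 0.5 CPM.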

Other observations

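The 6-letter word GCAACC in the 3′ UTR was counted for the members because, in earlier results of these data, genes with this word had higher fold changes. The values over all genes, and those of the members among them, therefore restate that observation and are no test of it. Over the 12385 tested genes with a 3′ UTR the median log2 fold change was 0.06 with the word (2927 genes) and -0.04 without it. Among the 47 tested members, 10 (21.3%, against 23.6% of all) held the word, with a median of 0.22 and 4 negative values. The 37 members without it had a median of -0.20 and 26 negative values. The 6 with a positive value are STAT2, OAS2, OAS3, EIF2AK2, ISG20 and IFI44L, and the 4 with a negative value are TLR3, IFIT1, DTX3L and EPSTI1. The 3′ UTR of HERC5, which rose, holds 0 copies. The part of this word in the results of the members was not tested.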
